A study of Mus musculus with 6 samples.

Results

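The Oct4 regions described here are the 265 genomic intervals that the authors called in the Oct4 chromatin immunoprecipitation (ChIP) library made 10 h after induction, against input chromatin of the same time, out of 1542 regions in the 3 deposited lists. All of the regions in the deposited Oct4 list were taken, with the genes that the authors listed beside each. The cells were tet-ON Oct4 mouse embryonic stem cells of C57BL/6 strain that had been differentiated with retinoic acid and then given doxycycline, which switches on the Oct4 transgene. The Spt16 and Jmjd1c ChIP libraries and the input library used here came from such cells at 10 h too, so retinoic acid and doxycycline are common to every library compared. Each was a single library, and the Oct4 library held 15.5 M reads, that of Spt16 36.7 M, that of Jmjd1c 26.7 M and the input 14.6 M. The Oct4 and input libraries at 0 h, from cells given PBS, were not analysed here, except that the authors removed 10 regions found in uninduced cells from the Oct4 list. Cell identity could not be checked against marker genes, because occupancy and not expression was measured. No group had replicates, so the intervals given here reflect counting error alone, and in those on shares each region counts as a separate unit although some are neighbors.

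Oct4, encoded by Pou5f1, is a POU-family transcription factor of pluripotent cells and the germline. Its POU-specific domain and its homeodomain each read a part of the octamer ATGCAAAT, and in embryonic stem cells it often binds beside Sox2 on a composite of a SOX site and an octamer. Spt16 is a subunit of the histone chaperone FACT, which loosens and rebuilds nucleosomes, and Jmjd1c is a Jumonji protein related to demethylases of histone H3 lysine 9. Differentiation with retinoic acid is known to silence the endogenous Pou5f1 and Nanog genes of embryonic stem cells.

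Of the regions that lay over or next to a gene start, 4 covered at least 50 bp of the stretch from 250 bases before to 50 bases after the start of a gene with a promoter sequence in RefSeq. The 250 bases before the RefSeq start (GRCm38.p6) of these 4 genes are shown, 5′ to 3′ along the gene, because the Oct4 regions overlapped these stretches by the deposited starts, wholly or in part. Capitals mark stretches with at least 7 of the 8 letters of the octamer on either strand.
Nanog, chr6:122707239-122707488, plus strand: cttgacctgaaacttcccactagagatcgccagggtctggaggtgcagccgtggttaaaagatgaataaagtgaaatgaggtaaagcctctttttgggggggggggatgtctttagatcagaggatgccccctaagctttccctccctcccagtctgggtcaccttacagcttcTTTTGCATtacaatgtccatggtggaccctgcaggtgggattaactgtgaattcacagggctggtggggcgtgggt
Rnf169, chr7:99980459-99980708, minus strand: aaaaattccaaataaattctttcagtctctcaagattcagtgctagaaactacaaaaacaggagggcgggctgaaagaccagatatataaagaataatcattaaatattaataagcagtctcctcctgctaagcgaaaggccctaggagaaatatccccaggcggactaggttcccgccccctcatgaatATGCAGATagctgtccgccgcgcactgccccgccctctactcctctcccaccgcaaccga
Srrm4, chr5:116591818-116592067, minus strand: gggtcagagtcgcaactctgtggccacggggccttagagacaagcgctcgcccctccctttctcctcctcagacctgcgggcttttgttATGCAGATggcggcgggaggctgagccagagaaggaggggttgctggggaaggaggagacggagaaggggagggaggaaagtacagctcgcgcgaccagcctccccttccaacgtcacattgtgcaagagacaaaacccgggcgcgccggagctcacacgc
Vamp1, chr6:125215331-125215580, plus strand: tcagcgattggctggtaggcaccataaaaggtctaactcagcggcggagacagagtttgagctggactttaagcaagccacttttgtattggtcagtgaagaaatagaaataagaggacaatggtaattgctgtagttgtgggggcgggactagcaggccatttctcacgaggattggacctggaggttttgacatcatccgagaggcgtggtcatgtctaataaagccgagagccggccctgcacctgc

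Nanog, which encodes a homeodomain factor central to pluripotency, carried its match at position -76 from this RefSeq start, or at -152 from the other RefSeq start of the gene. The Oct4 region ran from -176 to -15 relative to the deposited Nanog start, so both positions fell in that range, although the deposited and RefSeq starts belong to different builds and were not matched base by base. Read on the other strand, the Nanog match and the 7 letters after it follow the composite of a SOX site and an octamer. Among 21263 promoter windows of 17492 protein-coding genes, 2 windows (0.00941%) held every fixed letter of this composite, and both were Nanog's. The pattern left free, as N, the letter between the SOX site and the octamer and the last letter of the octamer. At that last letter the Nanog match differs from the octamer. How the free letters were chosen is not given here, so a match found only at Nanog is not read as independent evidence. With at least 13 of the composite's 15 positions matched, where each N always counts as matched, 169 of all windows (0.795%) held it. Near Oct4 regions 3 of the 38 windows did (7.89%, 1.66 to 21.4). Of these 3 windows, 2 were the overlapping windows of Nanog with the same match, so that interval counts the match more than once. Counted by gene, 166 of 17492 (0.949%) held it, and 2 of the 26 genes near Oct4 regions did (7.69%). Rnf169, a ubiquitin ligase of the DNA damage response, and Srrm4, a neuronal splicing regulator, carried ATGCAGAT at -60 and -161, where the Oct4 regions ran from -222 to -1 and from -304 to -26. This variant was looked up after these sequences had been seen and occurred in 151 of all windows (0.710%). Vamp1, a synaptic vesicle SNARE, had no match in the window, and its Oct4 region reached from -535 to -178, mostly outside it. A letter match is not a binding site, and the regions themselves were not read because no sequence of their build was used.

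The exact octamer, searched on both strands, was found in 353 of all promoter windows (1.66%, 95% Clopper-Pearson interval 1.49 to 1.84). Of 41 protein-coding genes with an Oct4 region within 5 kb of the start, 26 had promoter sequences, in 38 windows, and 2 windows (5.26%, 0.644 to 17.7) held the exact octamer. These belonged to Gadd45g, a stress and growth arrest gene, and Dll1, a Notch ligand, whose Oct4 regions lay outside the windows, at -794 to -584 and -4130 to -3933. With 1 mismatch allowed the counts were 3495 of all windows (16.4%) and 10 of the 38 (26.3%, 13.4 to 43.1). Over the 38 windows, both intervals include the share of all windows. For the genes with a region within 1 kb of the start, 7 of 14 windows had such a match (50%, 23.0 to 77.0). For those whose region lay over the window 4 of 5 did (80%, 28.4 to 99.5). These intervals lie above 16.4% but count overlapping windows as separate, so they are too narrow. The 2 windows of Nanog overlap and hold the same match. Dido1 and Gid8 (2310003C23Rik), which share 1 Oct4 region, gave 3 windows each to the 14, with a match in 1 window of each. Counted by gene, 6 of 9 genes within 1 kb had a match (66.7%), where 3299 of 17492 did (18.9%). Dido1 and Gid8 are 2 of these 6. These smaller sets lie within the 38, and no test was made.

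The list was shaped by its calling threshold. For the authors' list a region needed a Q score of 13 or more, and a log2 ratio to input of 1 or more, and the lowest member had a Q score of 13.3. As many as 70 of the 265 regions sat at that edge, each with 15 Oct4 reads and 0 input reads in its best window. Regions beyond the edge were not analysed here. The median region held 18 Oct4 reads (range 15 to 84), or 1.16 reads per M reads of the library (RPM). The median width was 220 bp (range 130 to 515). The smallest number of Oct4 reads rose with the input, being 15 reads at 0 input reads, 19 at 1, 22 at 2, 24 at 3 and 33 at 4, and 191, 37, 24, 12 and 1 regions had these input reads. Over the 74 regions with an input read, the median ratio of Oct4 RPM to input RPM was 17.8 (range 7.51 to 35.7). The 95% counting interval of a region's own ratio lay above 1 for each of the 74. For the 191 without an input read, enrichment over a floor of 3 input reads was at least 4.69-fold to at least 26.3-fold. These ratios describe how regions were chosen and test nothing.

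**Figure D1:**
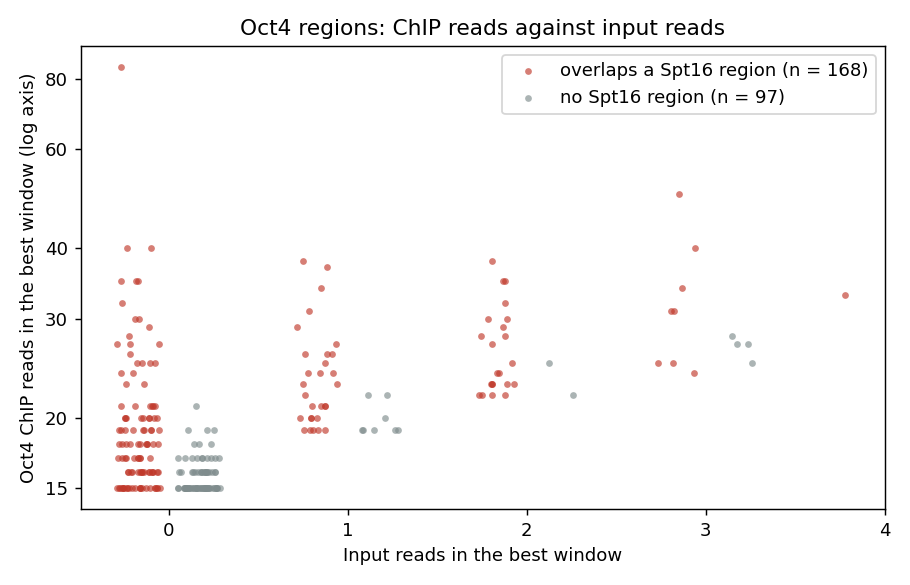
Oct4 ChIP reads (log axis) against input reads in the best window of each of the 265 Oct4 regions, with points moved sideways to separate them. Red points are the 168 regions that overlapped a Spt16 region and grey points the 97 that did not; the lower edge moves up from 15 Oct4 reads at 0 input reads to 33 at 4, and above 28 Oct4 reads there are red points only.

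Reads of both strands were present at each region. Over all regions, 2733 of 5384 Oct4 reads lay on the plus strand (50.8%, 49.4 to 52.1), and 64 of 125 input reads did (51.2%, 42.1 to 60.2). No region had fewer than 5 plus or 6 minus reads, and the plus share ranged from 31.2% to 64.7%. The counting interval of the plus share included 50% in 265 of 265 regions. The caller of regions was not given in the sources used here, and whether it selected regions for strand balance was not tested. The widest interval of the list, in Abca4 (515 bp), joined 24 overlapping windows, whereas 97 regions (36.6%, 30.8 to 42.7) consisted of 1 window.

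Some genes of the pluripotency network carried Oct4 regions at or near their starts. The list of these genes, like the other gene lists below, was chosen with earlier results of these data known. Counts of list genes beside the share of all genes are therefore descriptions, not tests. Of 45 such genes on the list used here, 14 had an Oct4 region within 50 kb of the start, where 1.41% of 21900 protein-coding genes did, and 9 had it within 5 kb, where 0.187% of all genes did. Pou5f1 had 40 Oct4 reads, 170 Spt16 reads and 24 Jmjd1c reads, against 0 input reads, in a region centered 1986 bp upstream of its start (chromosome 17, 35640795 to 35641195 in mm9, as are all region positions here). That is the side of the gene where its known distal enhancer lies, and it was the only member of the list with more than 34 Oct4 reads. Klf2, a Kruppel-like factor of naive pluripotency, had 16 Oct4 reads and 54 Spt16 reads against 0 input reads, 2740 bp upstream of the start (chromosome 8, 74840110 to 74840273). Fbxo15, an F-box gene used as a reporter of pluripotency, had 19 Oct4 reads and 36 Spt16 reads against 1 input read, 580 bp upstream. These stood near the edge of the list, whereas Pou5f1 stood near its top. Spt16 and Jmjd1c reads are given here and below from the best window of the region in their own list. Input reads are those of the Oct4 window, and the input of the Spt16 window can differ. That input was 1 read against 3 at Jarid2, and 3 against 2 at Dppa3.

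Nanog, Dppa3 and Gdf3 lie in the same stretch of chromosome 6, and the list held 2 regions there. The region beside Nanog had 24 Oct4 reads and 51 Spt16 reads against 2 input reads, a ratio to input of 11.3 (exact binomial counting interval 2.8 to 98.4). The other, 82.5 kb away (122574467 to 122574826), lay 1781 bp upstream of Dppa3, a maternal factor that guards methylation in the early embryo, and 14542 bp upstream of Gdf3, a Nodal-related ligand. It held 29 Oct4 reads and 110 Spt16 reads against 2 input reads, 13.6-fold over input. Relative to Oct4, Spt16 was at 1.61 (1.06 to 2.51) in RPM there and at 0.901 (0.544 to 1.53) at Nanog, and these 2 intervals overlap. Rif1, a regulator of replication timing, had 28 Oct4 reads, 170 Spt16 reads and 25 Jmjd1c reads against 0 input reads, 551 bp upstream of its start. Sall1, a zinc finger gene, had 32 Oct4 reads and 113 Spt16 reads against 2 input reads, in a region 40410 bp downstream of its start and beyond the gene.

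Nodal signaling keeps primed pluripotent cells and the early epiblast in balance, and its antagonists Lefty1 and Lefty2 are themselves Nodal targets. Of 29 genes for Nodal, TGF-beta and BMP signaling, 5 had an Oct4 region within 50 kb (17.2%, against 1.41% of all protein-coding genes), namely Lefty1, Lefty2, Gdf3, Foxh1 and Skil, and each of those regions overlapped a Spt16 region. Gdf3 and the 2 Lefty genes were on the pluripotency list as well. The Lefty locus on chromosome 1 held 3 regions. The region 1095 bp upstream of Lefty1 (182863939 to 182864176) had 34 Oct4 reads and 84 Spt16 reads against 1 input read. A second, 10087 bp upstream (182854987 to 182855144), had 24 Oct4 reads and 80 Spt16 reads against 3 input reads. The third, 4275 bp upstream of Lefty2 (182818876 to 182819051), had 15 Oct4 reads and 53 Spt16 reads against 0 input reads. Over the 3 sites Oct4 reads thus spanned 15 to 34 and Spt16 reads 53 to 84. Foxh1, the DNA-binding partner of Smad2 and Smad3, had a region over its start, from -31 to 163, with 15 Oct4 reads and 44 Spt16 reads against 0 input reads. Skil, a repressor of Smad-driven transcription, had 23 Oct4 reads and 50 Spt16 reads against 2 input reads at 5463 bp upstream. The receptor gene Bmpr1b, which was not on the list and is named after its values were seen, held a region inside the gene, 320064 bp from the start, with 16 Oct4 reads and 27 Spt16 reads against 0 input reads.

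Chromatin regulators with an Oct4 region within 50 kb were 5 of 48 (10.4%, against 1.41% of all protein-coding genes), and 4 of the 5 were on the pluripotency list too. Rest, the repressor of neuronal genes, had 22 Oct4 reads and 66 Spt16 reads against 2 input reads 3182 bp upstream of its start, and was the only one of the 5 with a region within 5 kb. Jarid2, a cofactor of Polycomb repressive complex 2, had 31 Oct4 reads and 116 Spt16 reads against 3 input reads 23749 bp upstream. Tet2, which oxidizes 5-methylcytosine, had 21 Oct4 reads and 71 Spt16 reads against 1 input read inside the gene, 19485 bp from its start. Wdr5, a core subunit of histone H3 lysine 4 methyltransferases, had 19 Oct4 reads against 1 input read 18664 bp upstream, at a place with no called Spt16 region. Phc1, a Polycomb repressive complex 1 subunit, likewise had 15 Oct4 reads against 0 input reads 39573 bp downstream and no Spt16 region at that site. The region near Wdr5 lies inside Brd3, an acetyl-histone reader, and 11169 bp from the start of that gene. Of the 5, Wdr5 alone was not on the pluripotency list.

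Of the lists for lineage genes and other signaling pathways, each had at most 1 gene with an Oct4 region within 50 kb of its start, and in lists of 15 to 32 genes such counts were read neither above nor below the 1.41% of all protein-coding genes. Rarg, a retinoic acid receptor, was the only one of 32 retinoic acid genes, with 23 Oct4 reads and 36 Spt16 reads against 2 input reads inside the gene. En2, a midbrain and hindbrain homeobox gene, was 1 of 21 neural and ectoderm genes, with 20 Oct4 reads and 132 Spt16 reads against 0 input reads at 44301 bp, inside the neighboring gene Cnpy1. Sox7, an endoderm SOX gene, was 1 of 23 mesoderm and endoderm genes, with 21 Oct4 reads and 50 Spt16 reads against 0 input reads 7004 bp upstream. Among 33 POU and SOX family genes there were 2, Pou5f1 and Sox7. Of 22 housekeeping and stress genes there were 2, Gapdh and Ubb, at 48727 bp and 39537 bp, where other genes were nearer. None of 24 FGF, MAPK and LIF genes, 24 Wnt genes, 20 cell cycle genes, 15 trophoblast and extraembryonic genes and 16 fibroblast genes had an Oct4 region within 50 kb of its start, and Spt16 regions, which lay within 50 kb of 7.16% of all protein-coding genes, stood near 4, 4, 6, 1 and 1 of them. Spt16 regions also stood near 32 of 45 pluripotency genes, 9 of 29 Nodal, TGF-beta and BMP genes and 14 of 48 chromatin regulators. In the remaining lists they stood near 4 of 32 retinoic acid, 5 of 21 neural and 1 of 23 mesoderm and endoderm genes. They stood near 10 of 33 POU and SOX genes and 10 of 22 housekeeping genes. The Oct4 library was shallower than that of Spt16, and the lists differ in length, so the difference in these counts was not tested. Lgr5, a Wnt co-receptor of stem cells, held 2 Oct4 regions inside the gene more than 100 kb from its start, each with 19 Oct4 reads against 1 input read. In all, 22 of 332 genes on the 13 lists had an Oct4 region within 50 kb, where 1.41% of all protein-coding genes did, and 14 of the 22 were on the pluripotency list, which was chosen with earlier results of these data known.

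**Figure D2:**
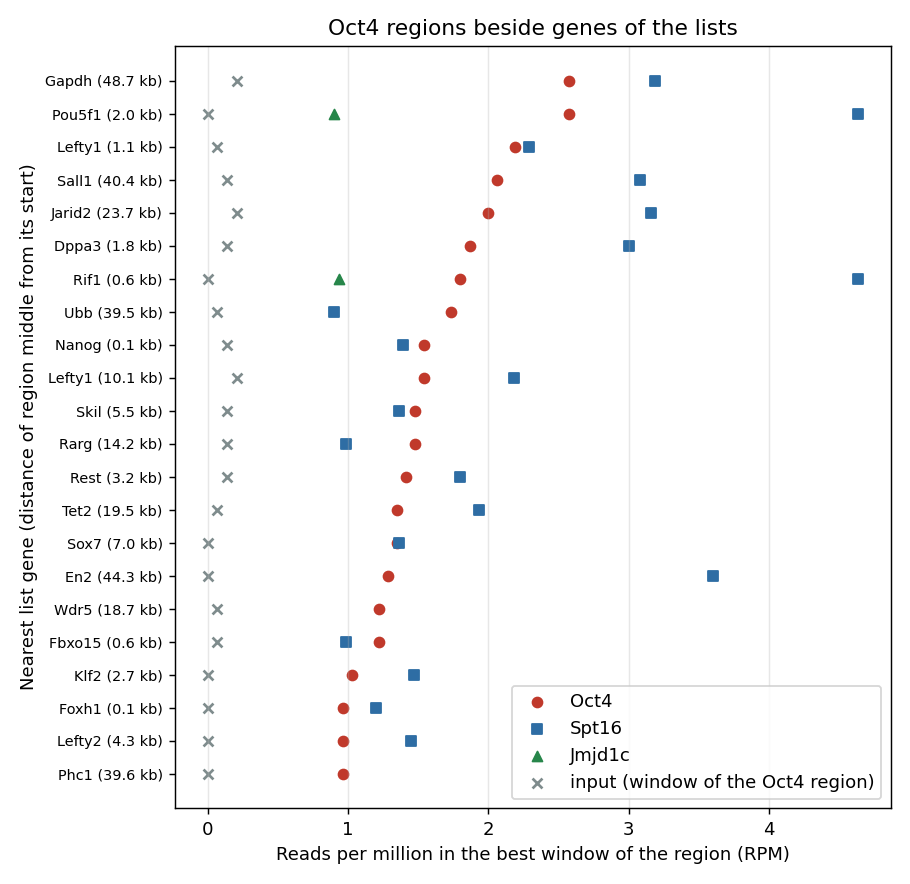
Reads per M library reads (RPM) at each Oct4 region within 50 kb of a list gene, with 1 row per region. Rows are named by the nearest list gene with the distance in kb and ordered by Oct4 level. Oct4 and input values are from the best window of the Oct4 region, Spt16 and Jmjd1c values from that of their own region. Circles are Oct4, squares Spt16, triangles Jmjd1c (regions called in those lists only) and crosses input; Oct4 lies above input in every row by the calling rule, Spt16 exceeds Oct4 most at En2, Rif1 and Pou5f1, and triangles appear at Pou5f1 and Rif1.

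Most Oct4 regions lay away from gene starts. The middle of 56 of the 265 regions (21.1%, 16.4 to 26.5) was within 5 kb of a listed gene start, 93 (35.1%, 29.4 to 41.2) were inside a gene with its start farther off, 78 (29.4%, 24.02 to 35.3) lay between genes, and 38 (14.3%, 10.4 to 19.1) had no gene listed. Of the 1085 Spt16 regions without Oct4, 31.4% (28.7 to 34.3) were within 5 kb of a start, 33.3% (30.5 to 36.2) inside genes, 25.1% (22.5 to 27.8) between genes and 10.2% (8.49 to 12.2) without a listed gene. Median Oct4 reads were 19 within 5 kb of a start, 18 inside genes, 19 between genes and 17 where no gene was listed, so read numbers were much alike in the 4 classes. Counting only protein-coding genes, 38 regions were within 5 kb of a start, of which 25 lay upstream and 13 downstream.

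**Figure D3:**
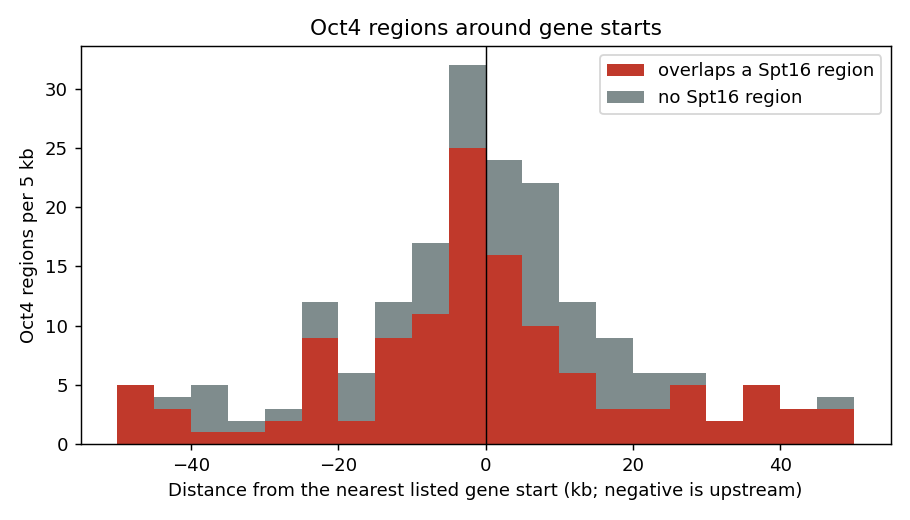
Number of Oct4 regions per 5 kb around the nearest listed gene start (negative is upstream, along the gene), for the 191 regions whose nearest start lay within 50 kb. Red is regions overlapping a Spt16 region and grey those that did not; the tallest bars are the 32 regions in the 5 kb upstream and the 24 in the 5 kb downstream of a start.

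Beyond the pluripotency network, start-proximal regions stood beside genes of many kinds. Dido1, which encodes a PHD finger protein linked to stem cell self-renewal, had 30 Oct4 reads and 75 Spt16 reads against 0 input reads 769 bp inside the gene, and the same region lay 887 bp upstream of 2310003C23Rik (Gid8), a subunit of a ubiquitin ligase complex. Vamp1 had 40 Oct4 reads and 117 Spt16 reads against 3 input reads 357 bp upstream. Nid2, a basement membrane nidogen, had 29 Oct4 reads and 54 Spt16 reads against 1 input read 1361 bp upstream. Vegfc, the lymphangiogenic growth factor, had 31 Oct4 reads and 86 Spt16 reads against 3 input reads 1038 bp upstream. Gprc5b, an orphan G protein-coupled receptor, had 27 Oct4 reads and 57 Spt16 reads against 0 input reads inside the gene. Lrrn2, a leucine-rich repeat membrane protein gene, had 23 Oct4 reads and 84 Spt16 reads against 0 input reads 1152 bp upstream. Srrm4 and Rnf169, whose sequences are given above, had 19 and 21 Oct4 reads with 67 and 71 Spt16 reads, against 0 and 1 input reads.

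Of the other start-proximal regions, those at Max, Mcl1, Ccnc, Trp53bp1, Gadd45g, Dll1 and Diap1 are given as examples and were picked after their values were seen. Max, the obligate partner of Myc proteins, had 20 Oct4 reads and 38 Spt16 reads against 1 input read 3067 bp upstream. Mcl1, an antiapoptotic member of the Bcl2 family, and Ccnc, the cyclin of the Mediator kinase module, had 15 and 16 Oct4 reads with 39 and 27 Spt16 reads, against 0 input reads for each. Trp53bp1, a DNA double-strand break factor, had 15 Oct4 reads and 41 Spt16 reads against 0 input reads inside the gene, 634 bp from its start. Gadd45g and Dll1 had 16 and 15 Oct4 reads with 52 and 55 Spt16 reads, against 0 input reads. The T-cell coreceptor gene Cd4, the nicotinic receptor gene Chrna5 and Diap1 (Diaph1), a formin gene, had 19, 19 and 17 Oct4 reads against 0 input reads inside the genes, with no Spt16 region.

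Some regions lay deep inside long genes, and apart from Abca4 those given here are named after their values were seen. For 18 regions inside a gene the nearest start was more than 100 kb away, and each of the 18 had 0 input reads. Abca4, a retinal lipid transporter, held the strongest region of the list, with 84 Oct4 reads, 217 Spt16 reads and 46 Jmjd1c reads against 0 input reads, 101133 bp from the start. The neural adhesion genes Dscam and Ncam2 had 21 and 17 Oct4 reads with 73 and 98 Spt16 reads against 0 input reads, at 325086 bp and 280502 bp. Ebf1, a B-lymphocyte regulator, and Mitf, the melanocyte regulator, had 17 and 16 Oct4 reads with 52 and 37 Spt16 reads, against 0 input reads. Smyd3, a SET-domain methyltransferase gene, held 2 regions 52.8 kb apart with 15 and 18 Oct4 reads against 0 input reads, of which the stronger overlapped a Spt16 region. Where no gene was listed, the strongest region (chromosome 3, 18523915 to 18524258) had 38 Oct4 reads and 107 Spt16 reads against 2 input reads.

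A few regions came in close pairs. The list held 5 pairs of neighbors within 10 kb and 14 within 100 kb. The closest pair, 883 bp apart on chromosome 5 beside Gm7361, had 25 and 16 Oct4 reads against 3 and 0 input reads and no Spt16 region. On chromosome 15, regions 3.10 kb apart upstream of a U7 gene had 16 and 35 Oct4 reads against 0 input reads, and Spt16 was called at the stronger of them (124 Spt16 reads). The 2 Lgr5 regions were 5.81 kb apart and Spt16 was called at 1 of them, while at the Lefty1 pair, 8.79 kb apart, it was called at both.

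MicroRNA genes stood within 50 kb of 6 Oct4 regions, a count for which no background share was computed. The nearest were Mir296 and Mir298, processed from neighboring hairpins at the imprinted Gnas locus, with a single region 5662 bp and 6122 bp downstream of their starts (chromosome 2, 174086810 to 174087116) that held 20 Oct4 reads and 73 Spt16 reads against 0 input reads. miR-296 has been described as a repressor of Nanog in differentiating embryonic stem cells. Mir205, an epithelial microRNA gene, had 15 Oct4 reads against 0 input reads at 20097 bp, with no Spt16 region. Their mature sequences in RefSeq (GRCm38.p6) are given to show which microRNAs are meant, with the seed, bases 2 to 8, in capitals. No seed was shared between them.
miR-296-5p: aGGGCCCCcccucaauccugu
miR-296-3p: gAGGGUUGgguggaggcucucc
miR-298-5p: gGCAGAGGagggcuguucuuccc
miR-205-5p: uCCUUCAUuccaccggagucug

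The share of Oct4 regions that met a Spt16 region varied with the number of Oct4 reads. Over the whole list 168 of 265 (63.4%, 57.3 to 69.2) overlapped one by at least 1 bp. Of regions with 15 Oct4 reads, 23 of 70 did (32.9%, 22.1 to 45.1), with 16 to 17 reads 27 of 56 (48.2%, 34.7 to 62.0), and with 18 to 19 reads 25 of 36 (69.4%, 51.9 to 83.7). At 20 to 24 reads it was 45 of 50 (90.0%, 78.2 to 96.7), at 25 to 29 reads 23 of 28 (82.1%, 63.1 to 93.9), and at 30 or more 25 of 25 (100%, lower bound 86.3). These bins were set after the data had been seen. Spt16 reads at uncalled places were not analysed here, so a region without a Spt16 call is not shown to lack Spt16. The 3 lists also share the input library.

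**Figure D4:**
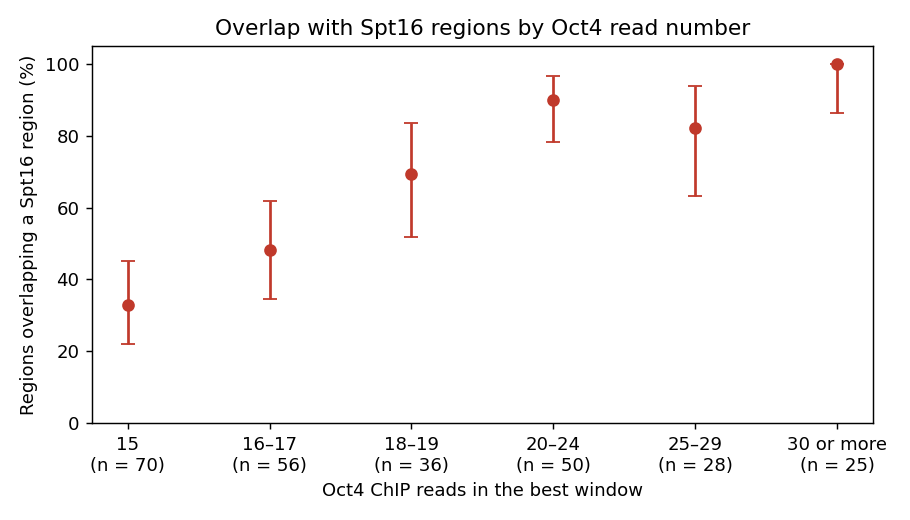
Percent of Oct4 regions that overlapped a Spt16 region, by Oct4 reads in the best window, with 95% Clopper-Pearson intervals as bars. The share is 32.9% at 15 reads and 100% at 30 or more, and the intervals of those 2 bins do not overlap.

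At the 168 shared regions the ratio of Spt16 RPM to Oct4 RPM ranged from 0.518 to 2.80, with a median of 1.14. The 5 highest ratios were at Cnpy1 near En2 (2.80, 1.74 to 4.73), Rif1 (2.57, 1.72 to 3.99), Ncam2 (2.44, 1.45 to 4.36), the scaffold gene Iqgap1 (2.35) and Gm10704 (2.25, 1.31 to 4.12). All but Cnpy1 of these were also Jmjd1c regions. The 11 regions with both Spt16 and Jmjd1c had a median ratio of 1.74, with single regions from 1.10 to 2.57. The other 157 had a median of 1.12, with single regions from 0.518 to 2.80. The counting interval of a region's own ratio lay above 1 in 7 of the 11 and in 14 of the 157. The lowest ratios were beside Gm12949 within Pigl (0.518, 0.302 to 0.896), which is the region counted for Ubb, and inside Ss18, a subunit of BAF chromatin remodelers (0.549, 0.323 to 0.944). Both lists are cut at a threshold, so these ratios describe called regions only. Each ratio compares the best windows of 2 overlapping regions, which need not be the same window. The Jmjd1c list held only 24 regions, and 13 of them (54.2%, 32.8 to 74.4) overlapped an Oct4 region. Jmjd1c regions overlapped 13 Oct4 regions (4.91%, 2.64 to 8.24). Those without Spt16 were 2, both on chromosome 4, near Gm13155 (27 Oct4 reads and 33 Jmjd1c reads against 3 input reads) and Gm13233 (15 Oct4 reads and 23 Jmjd1c reads against 0 input reads).

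The 97 Oct4 regions without Spt16 were mostly weak. Their median was 16 Oct4 reads (range 15 to 28), against 20 (range 15 to 84) at the 168 with Spt16. Of the 97, 66 (68.0%, 57.8 to 77.1) had 15 or 16 reads, against 40 of the 168 (23.8%, 17.6 to 31.0). The 97 were narrower, with a median of 201 bp against 251 bp. In position, 15 of 97 (15.5%, 8.92 to 24.2) were within 5 kb of a gene start, against 41 of 168 (24.4%, 18.1 to 31.6), and these intervals overlap. Only 10 of the 103 regions with 20 or more Oct4 reads had no Spt16 region, and 9 of those 10 had at least 1 input read. Every region with 2 or more input reads held at least 22 Oct4 reads, so all such regions are among the 103. The share of the 103 with an input read was not computed, so the 9 of 10 is not read as a trait of regions without Spt16. The strongest by score lay 19795 bp from a U6 gene on chromosome 8 (80351072 to 80351385), with 21 Oct4 reads against 0 input reads. Others, among the 10 highest scores without Spt16, lay inside Sae1, a SUMO-activating enzyme gene, and 10122 bp upstream of Scap, the sterol-sensing chaperone of SREBP proteins, each with 18 Oct4 reads against 0 input reads.

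Chromosome 8 held 34 of the 265 (12.8%, 9.05 to 17.5), more than any other chromosome, and 80 of the 1253 Spt16 regions (6.38%, 5.09 to 7.88). Chromosomes 1 and 3, next in number, held 23 each (8.68%, 5.58 to 12.7). Of the chromosome 8 regions, 15 overlapped a Spt16 region (44.1%, 27.2 to 62.1), against 153 of 231 (66.2%, 59.7 to 72.3) elsewhere. They had a median of 16 Oct4 reads, against 18 elsewhere, and 20 of them (58.8%, 40.7 to 75.4) had 15 or 16 reads, against 86 (37.2%, 31.0 to 43.8). An input read was absent from 27 of them (79.4%, 62.1 to 91.3), against 164 elsewhere (71.0%, 64.7 to 76.8), so those intervals overlap. Within 5 kb of a gene start were 4 of the 34 (11.8%, 3.30 to 27.5), which stood beside Vegfc, 1700030J22Rik, Klf2 and Dhx38. Chromosome lengths and the reads of each library per chromosome were not analysed here, so these are shares of the lists, not rates per base or per read. Without chromosome 8, 66.2% of Oct4 regions overlapped a Spt16 region.

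**Figure D5:**
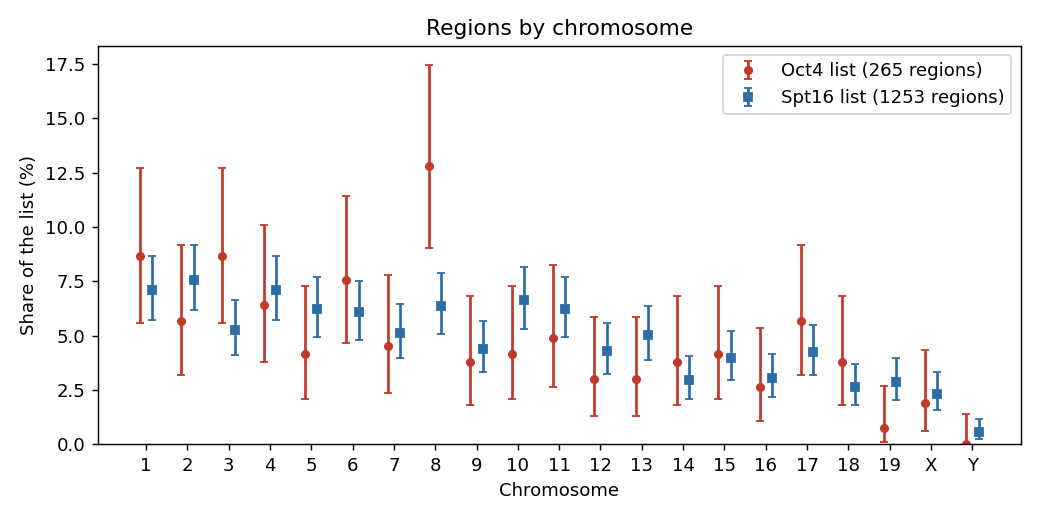
Share of the Oct4 list (red circles, 265 regions) and of the Spt16 list (blue squares, 1253 regions) on each chromosome, with 95% Clopper-Pearson intervals. Chromosome 8 holds 12.8% of the Oct4 list and 6.38% of the Spt16 list, and its 2 intervals do not overlap.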

How the data were processed

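ChIP-seq and input libraries were made from sonicated, formaldehyde-fixed chromatin, per the labels' protocols. Reads were processed with CASAVA 1.4 and Bowtie on mm9, per the submitters' processing notes, and the caller of regions was not given in the sources used here. The deposited tables give, per region, whole-number read counts per strand in the best window, for ChIP and input. The authors' log2 value is the log2 of ChIP over input reads, scaled to library totals with 1 added, and the counts gave it back within 3.13e-07. The authors' score and Q score are transformed binomial p-values and q-values per the file headers, and served to order regions. Gene distances are the authors' deposited values.

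Strand counts were summed and scaled to RPM by header totals. Input reads given beside Spt16 or Jmjd1c reads are those of the Oct4 window. Ratios to input have exact binomial counting intervals, or use a floor of 3 input reads (0.206 RPM) where input was 0. Reads carry no stated molecular identifiers and need not be independent molecules. Of 633 gene identifiers, 433 (68.4%) matched protein-coding RefSeq symbols on the same chromosome (GRCm38.p6, names and promoter sequences only). The 21 rank numbers absent from the Oct4 list were not analysed here. Groups follow sample titles. No test was made, since each group held 1 library and regions were chosen by enrichment. Regions and gene lists were chosen with earlier results of these data known. The naming rule took the 10 highest scores, up to 20 start-proximal regions, the 10 highest without Spt16, the 5 widest, 5 with most input reads, 5 lowest, up to 5 close pairs and regions near list genes, of which not all are described. Code was tested on simulated data. Tools were matplotlib 3.10.9, pandas 2.3.3, scipy 1.17.1 and numpy 2.4.6 under Python 3.11.15.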

Additional observations from a re-analysis of the deposited data

How the results depend on the processing

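Of 33 alternatives to the values above, 22 left the value close to the reported one and 11 moved it. For a share, close means inside its counting interval, and for a count or median within 1.5 times of it. Whether a result reversed was not scored. With the 135 regions in the higher part of the list by score, the share without an input read was 63.0% and the share overlapping a Spt16 region 83.0%. The share of regions near a gene start was 6.04% within 1 kb, 35.8% within 10 kb and 14.3% for protein-coding genes within 5 kb. List genes with an Oct4 region numbered 12 within 10 kb and 10 within 5 kb, and those of the pluripotency list 9 at either distance. The median ratio to input over the 74 regions with an input read was 9.42 with 1 added to ChIP and input reads, a change that the added read alone brings. Promoter windows with 7 of the 8 octamer letters made up 26.3%. Leaving out chromosome 8, an alternative added after seeing the data, moved no share beyond its interval. No paired analysis was possible because each group held 1 library and none carries a replicate number. Regions without an input read had at least 15 Oct4 reads, and places with fewer are not in this list.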

Other observations

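Small RNA genes other than microRNA genes, for which no background share was computed, were listed within 50 kb of 27 Oct4 regions. Annotated copies of the small nucleolar RNA gene SNORA17 stood beside 3 of them, on chromosomes 17, 16 and 4, with 50, 31 and 17 Oct4 reads and 199, 77 and 45 Spt16 reads, against 3, 1 and 0 input reads. A U2 gene on chromosome 1, for a spliceosomal RNA, had 16 Oct4 reads and 57 Spt16 reads against 0 input reads 2974 bp downstream of its start, and a U3 gene on chromosome 7, for a nucleolar RNA of ribosomal RNA processing, had 26 Oct4 reads and 72 Spt16 reads against 0 input reads 4807 bp downstream. A Y_RNA gene lay 1082 bp from the region upstream of Dppa3.

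At least 3 input reads fell in 13 Oct4 regions, and 9 of these overlapped a Spt16 region, where 63.4% of the whole list did. The genes named here are examples, and no background share of large gene families was computed. Some of the 13 were listed with Vamp1 (357 bp from its start), Vegfc (1038 bp), Traf3 (23168 bp), Jarid2 (23749 bp) and Basp1 (81496 bp). Members of large gene families were listed too. A vomeronasal receptor gene, Vmn1r79, lay 7765 bp from a region with 33 Oct4 reads against 4 input reads, the most input reads of the list. An olfactory receptor gene, Olfr761, lay 37789 bp from a region with 28 Oct4 reads against 3 input reads and no Spt16 call. Beside Gm10414, a 438 bp region had 27 Oct4 reads, of which 9 lay on the plus and 18 on the minus strand, against 3 input reads.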
